A study of Mus musculus with 18 samples.

Results

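Livers of mice at the extremes of energy intake in a diet study were compared: 3 livers of the group LF+CR against 3 livers of the group HF, 6 of the 18 arrays of the series. The LF+CR mice ate a low-fat diet, with 10% fat, restricted by 30%, and the HF mice ate a high-fat diet, with 60% fat, without restriction. Both groups were male C57BL/6J mice, assigned to their diets at 5 weeks of age, housed singly and sampled at 62 weeks, and RNA of 1 liver was hybridised to each Affymetrix mouse array. The groups LF and HF+CR, 3 livers each, serve as a scale for the pair: LF mice ate the low-fat diet freely, and HF+CR mice ate the high-fat diet with a 30% restriction. The groups LF+Ex and HF+Ex, 3 livers each, were mice with voluntary running on the low-fat and high-fat diets without restriction. Their arrays entered the fit over all 18 arrays, and they are not compared here. The food given to the restricted mice was set from what the freely fed mice of the same diet ate. Dietary fat and restriction therefore both differ between LF+CR and HF and cannot be told apart in this pair, and the labels give no body weight, fat mass, feeding state or time of day, so neither leanness nor obesity can be checked here.

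The liver makes fatty acids and cholesterol from acetyl-CoA, stores surplus fat in droplets coated with dedicated proteins, and burns fatty acids in mitochondria and peroxisomes. Its synthetic enzymes are driven largely by transcription factors of the SREBP family, which respond to insulin and to falling sterol levels. Male mouse liver also carries a set of genes switched on by the pulses of growth hormone typical of males, and another set that those pulses keep low.

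Values are linear intensities, and fold changes are differences of log2(intensity + 16), LF+CR minus HF, from a limma fit over all 18 arrays with p-values adjusted by Benjamini-Hochberg over 14198 genes. The arrays had nearly equal mean intensities, between 304.9 and 307.8. A level at or under the 40th percentile of an array, 88.22 to 97.57, is called dim below. Albumin, the main secreted product of hepatocytes, read 21654, 21408 and 21354 in the LF+CR livers and 20125, 20377 and 20795 in the HF livers.

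Several arrays stood apart from the rest of their group. On the first principal component of the 18 arrays, the axis of largest variation, LF+CR 2 lay at 23.6 and HF 1 at 21.2. The other LF+CR arrays lay at 3.94 and 0.291 there, and the other HF arrays at 4.76 and 8.56. LF+CR 1 carried pancreatic acinar transcripts: Prss2, a trypsinogen, read 901 there, against 57.2 and 56.4 on LF+CR 2 and LF+CR 3 and 49.6 to 68.2 on the HF arrays, and the summed level of 11 acinar markers was 5936 on LF+CR 1 and 1089 to 1286 on the other 5 arrays. LF+CR 2 had the highest sum of Kupffer cell, stellate cell and MHC class II genes of the 6 arrays. Its 8 MHC class II genes summed to 12725, against 4350 and 4432 on LF+CR 1 and LF+CR 3 and 6968 to 9426 on the HF arrays. The part of these other cell types in the results was not tested. In bulk liver, fewer cells of a type and less RNA per cell cannot be told apart.

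Genes of cholesterol and fatty acid synthesis stood higher, and genes of the lipid droplet lower, in LF+CR livers than in HF livers. Of 14198 genes tested, 1237 changed at an adjusted p under 0.05, or 8.71%: 481 were higher in LF+CR livers, 3.39% of those tested, and 756 were lower, 5.32%. Most differences were small, since 73 of the changed genes passed 1 on the log2 scale, 28 higher and 45 lower, and 5 passed 2. All arrays of one group lay above all arrays of the other for 1221 of the 1237 changed genes, and for 3814 of the 14198 genes tested, or 26.9%. The calls came from the same arrays, so the lack of overlap among changed genes largely follows from the call. Leaving out LF+CR 1, HF 1 or HF 3 brought the count to 721, 744 and 595 genes, and 461 genes, 155 higher and 306 lower, were called in every fit that left out 1 of the 6 arrays.

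**Figure D1:**
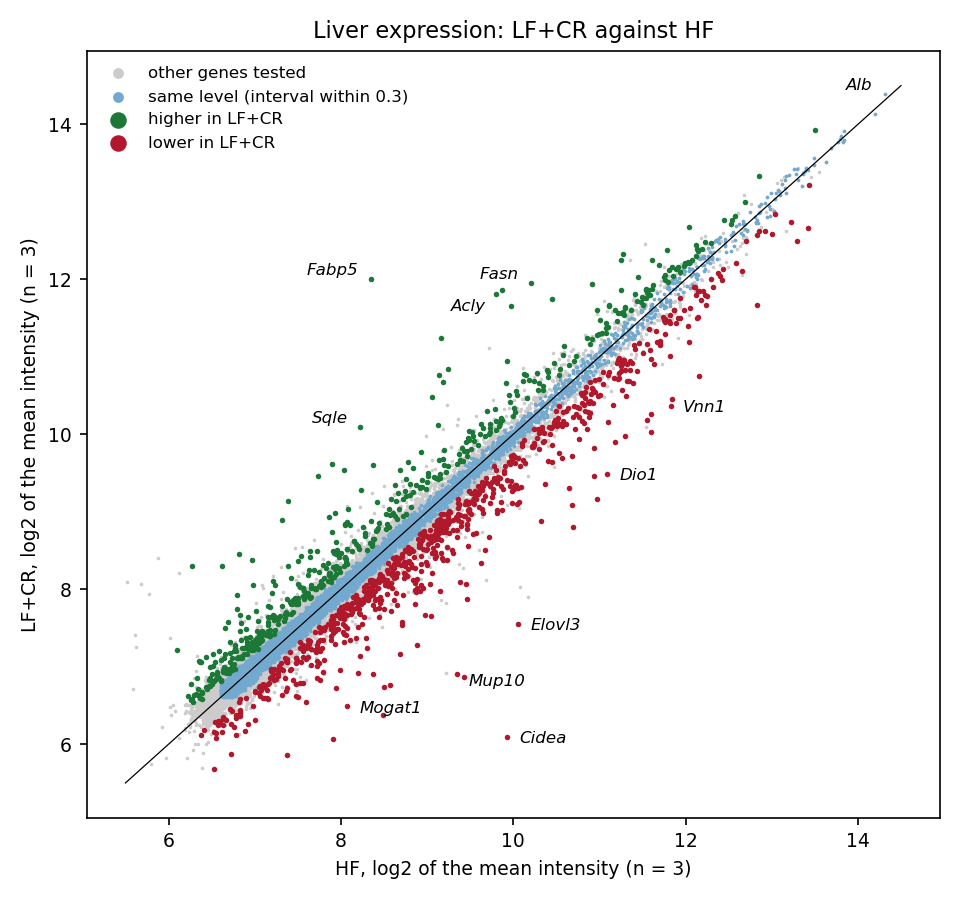
Mean intensity of each tested gene in LF+CR livers (vertical axis, log2) against HF livers (horizontal axis, log2), 3 arrays each; the line marks equal levels. The 481 genes higher in LF+CR are green, the 756 lower are red, and the genes at the same level are blue unless they also changed; Fabp5 stands furthest above the line and Cidea furthest below it among the coloured genes.

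Most enzymes of cholesterol synthesis stood higher in LF+CR livers. Of 17 tested, 13 rose, 4 did not pass, none lay at the same level, and all 17 estimates were positive, with a median of 0.73 against 0.019 over all genes. Sqle, squalene epoxidase, read 1097, 1089 and 1100 in LF+CR livers and 411, 130 and 356 in HF livers. The LF+CR arrays agreed closely and every HF array lay far below them, a log2 fold change of 1.96 ± 0.31 (SE, adjusted p = 0.00123). Pmvk, phosphomevalonate kinase, read 778, 654 and 678 in LF+CR livers and 243, 176 and 219 in HF livers, a change of 1.66 ± 0.12 (adjusted p = 2.59e-06). Fdps, which makes farnesyl diphosphate, rose by 1.81, Idi1 and Nsdhl by 1.69, Cyp51 by 1.46, Dhcr7, the last step to cholesterol, by 1.06 and Lss by 1.00. Among the HF livers, HF 2 was the lowest for Sqle, Fdps, Idi1, Nsdhl and Cyp51.

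Hmgcs1, which supplies the first committed precursor, was the exception at the top of the pathway. It read 2957, 3522 and 2679 in LF+CR livers and 2787, 1493 and 2514 in HF livers, and the groups overlapped. Its log2 fold change was 0.47, with a 95% interval from -0.03 to 0.96 (adjusted p = 0.243). Genes that sense and import sterols did not move with the enzymes: of 15 tested, 1 rose and 1 fell, 4 lay at the same level, and their median was 0.04. Insig1, which holds SREBP in the endoplasmic reticulum, was the one that rose (656, 705 and 737 in LF+CR livers, 564, 514 and 546 in HF livers, 0.36, adjusted p = 0.0438), and its call was lost on leaving out any of the 6 arrays. Mylip, a ligase that degrades the LDL receptor, was the one that fell, by 0.52 (adjusted p = 0.00108).

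Genes of fatty acid synthesis rose beside them. Of 15 tested, 11 rose and none fell or lay at the same level, with a median of 0.59. Fasn, fatty acid synthase, read 5104, 3541 and 3195 in LF+CR livers and 1427, 966 and 1146 in HF livers. No LF+CR liver overlapped with an HF liver, and the change was 1.72 ± 0.19 (SE, adjusted p = 0.00012). Acly, which supplies acetyl-CoA from citrate, read 4722, 3668 and 2759 in LF+CR livers and 1035, 865 and 913 in HF livers, a change of 1.94 ± 0.14 (adjusted p = 3.39e-06), and 4 further Acly probe sets gave 1.83, 1.79, 2.13 and 0.16. Elovl6, which lengthens palmitate, rose by 2.00, Acss2, which makes acetyl-CoA from acetate, by 1.99, and the carboxylases Acacb and Acaca by 1.47 and 1.46. One further Elovl6 probe set gave 1.83 and another 0.35.

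The transcription factors themselves did not pass. Srebf1 read 2266, 1555 and 1794 in LF+CR livers and 1268, 1461 and 1209 in HF livers, without overlap, at 0.49 (95% interval 0.08 to 0.91, adjusted p = 0.138). Mlxipl, which encodes the carbohydrate-sensing factor ChREBP, read 998, 570 and 978 in LF+CR livers and 894, 1141 and 996 in HF livers, at -0.28 (interval -0.67 to 0.11). Scd1, the desaturase, rose by 0.43 (adjusted p = 0.0217), at levels of 15394 to 15840 in LF+CR livers and 10859 to 12215 in HF livers. The call was lost without LF+CR 1, LF+CR 3, HF 2 or HF 3, and a second Scd1 probe set gave 0.91.

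Levels of these enzymes in LF and HF+CR livers differed by gene. Fasn averaged 3947 ± 1017 in LF+CR livers and 1180 ± 232 in HF livers, with 655 ± 138 in LF and 1764 ± 87.1 in HF+CR livers (SD, n = 3 each). Sqle averaged 1095 ± 5.53 in LF+CR and 299 ± 149 in HF livers, with 177 ± 60.1 in LF and 1079 ± 199 in HF+CR livers. LF livers had the lowest mean of the 4 groups for these 2 genes. That did not hold throughout: the LF mean was above the HF mean for Elovl6, with 2421 in LF+CR, 575 in HF and 656 in LF livers. It was also above it for Acss2, Pmvk and Scd1. None of these differences between LF and HF was tested here.

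A sterol response letter pattern, TCACNCCAC, was sought on both strands in the 250 bases before the start of each gene in RefSeq (build GRCm38.p6), since the members rose together. It occurred before 1 of 14 cholesterol synthesis genes, 1 of 14 fatty acid synthesis genes and 331 of all 27025 genes with a sequence, or 1.22% of the last. Both list genes that hold it, Hmgcs1 and Mlxipl, are shown with the match in capitals, forward strand, at chr13:119690174-119690262 and chr5:135106715-135106803. Neither passed the test between the groups, and neither lay at the same level. The match is a description of the letters, not a bound site.
Hmgcs1: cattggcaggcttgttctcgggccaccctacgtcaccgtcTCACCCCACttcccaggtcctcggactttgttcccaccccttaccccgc
Mlxipl: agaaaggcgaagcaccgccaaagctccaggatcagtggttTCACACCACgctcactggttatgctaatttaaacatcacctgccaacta

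The largest rise of all lay in fatty acid binding. Fabp5, a fatty acid binding protein best known from skin and fat tissue, read 4981, 2310 and 5054 in LF+CR livers and 469, 194 and 310 in HF livers. No array overlapped, although LF+CR 2 had less than either other LF+CR liver, and the change was 3.60 ± 0.47 (SE, adjusted p = 0.0003). A second probe set gave 3.62. Fabp2, the intestinal form, fell by 0.72, and Fabp1, the main form of liver, lay at the same level with 13059 to 14939 in LF+CR livers and 13479 to 14303 in HF livers. Of 12 genes of fatty acid uptake tested, Fabp5 was the only one that rose, and Fabp2 and the transporter Slc27a2 (-0.42) fell.

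**Figure D2:**
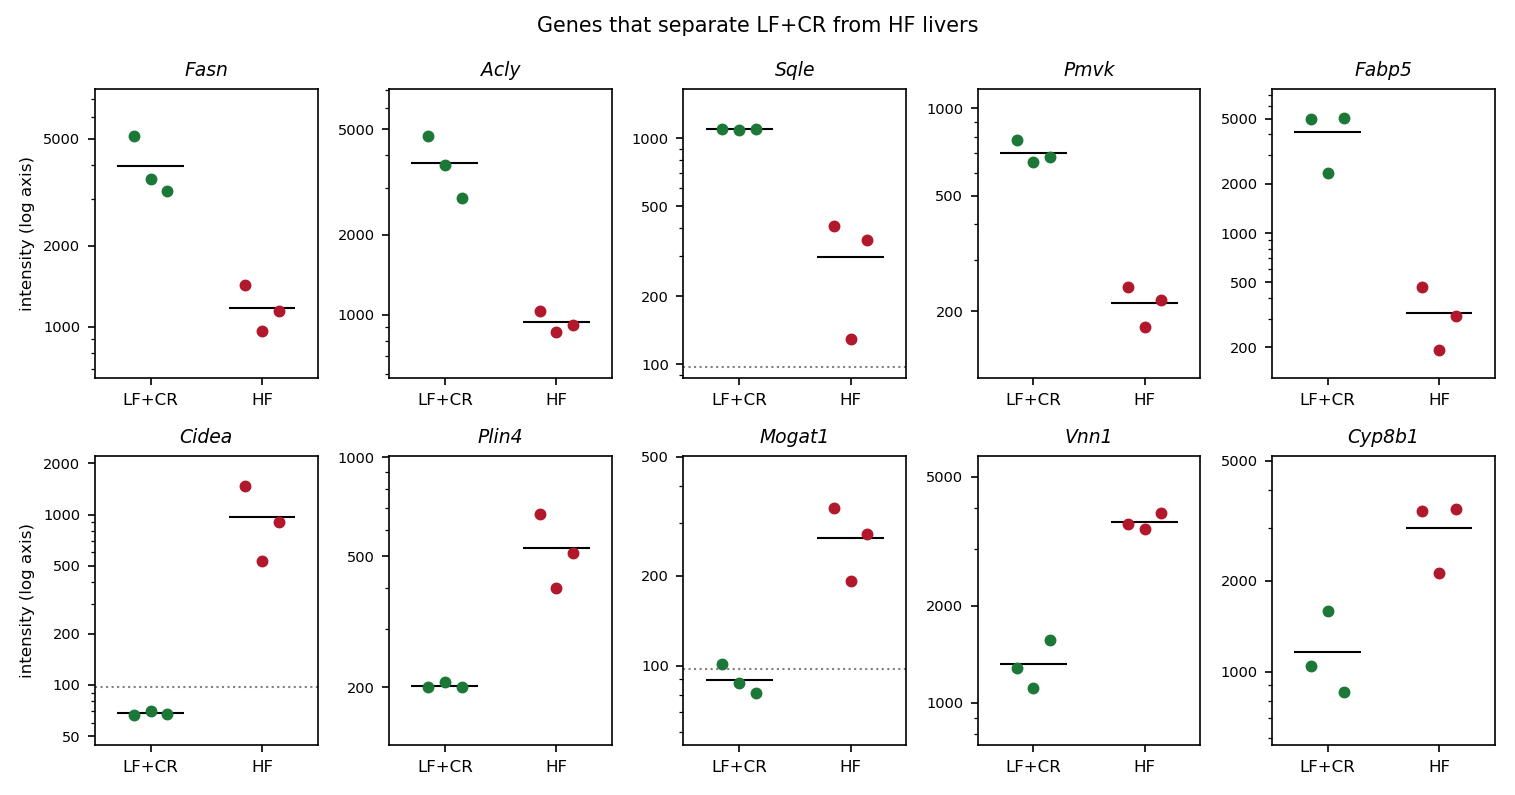
Intensity on each array (points, log axis) in LF+CR and HF livers for 10 genes, 3 arrays a group; black lines are means and the dotted line is the highest dim threshold, 97.57. The upper row shows genes higher in LF+CR on every array and the lower row genes lower on every array; Cidea lies under the threshold on all LF+CR arrays.

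Transcripts of the lipid droplet list fell in part. Of 17 genes tested, 8 fell, against 5.32% of all genes, none rose and 16 estimates were negative, with a median of -0.37. The count of falls was 7 or 8 on leaving out any 1 of the 6 arrays. Cidea, which enlarges droplets by fusing them, read 66.4, 70.5 and 67.8 in LF+CR livers and 1479, 536 and 904 in HF livers. It was dim on all LF+CR arrays and bright on all HF arrays, so the HF livers were at least 9.65-fold higher (fitted log2 fold change -3.44, adjusted p = 0.000153). It was also low in LF livers, 95.8 ± 20, and HF+CR livers, 75.1 ± 10.8 (SD, n = 3 each). Plin4, a droplet coat protein, read 200, 207 and 200 in LF+CR livers and 674, 401 and 512 in HF livers, a change of -1.29 ± 0.16 (SE, adjusted p = 0.00018). Fitm1, which acts in droplet formation, fell by 1.55 and Plin5 by 0.86. Cidec, related to Cidea, fell too, with 66.7, 112 and 70.8 in LF+CR livers and 546, 193 and 339 in HF livers. Its LF+CR mean of 83.1 was dim, so the size of the fitted change, -1.83, is uncertain.

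G0s2, an inhibitor of the lipase Pnpla2, read 394, 608 and 2120 in LF+CR livers and 2549, 2881 and 3867 in HF livers. LF+CR 3 lay close to the HF livers, and the fall of 1.91 (adjusted p = 0.0127) was lost without LF+CR 1 or HF 3. Pnpla2 itself read 913 to 945 in LF+CR livers and 855 to 1079 in HF livers and did not pass (-0.08, adjusted p = 0.738). Plin2, the most abundant coat protein of liver droplets, had -0.37 and did not pass either (adjusted p = 0.171).

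Of 13 triglyceride synthesis genes tested, 6 lay at the same level, a share near the 43.7% of all genes, and 2 fell. One was Mogat1, a monoacylglycerol acyltransferase, which read 101, 87.2 and 81.3 in LF+CR livers and 336, 192 and 275 in HF livers (-1.40 ± 0.16, adjusted p = 0.000141). Its LF+CR mean of 89.8 was dim, so the size of that change is uncertain. The other was Agpat2, which fell by 0.54, a call lost without LF+CR 1, LF+CR 3, HF 1 or HF 3. Dgat1, which makes the final ester bond, read 343, 314 and 348 in LF+CR livers and 343, 348 and 317 in HF livers and lay at the same level.

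Genes of fatty acid oxidation were lower in LF+CR livers by small steps. Of 18 mitochondrial members tested, 9 fell, none rose and 7 lay at the same level, with a median of -0.19. The count was 2 without HF 1, 3 without LF+CR 1, 4 without HF 3 and 5 without LF+CR 3. Cpt1a, the gate for fatty acids into mitochondria, fell by 0.48 (adjusted p = 0.0115), a call lost without HF 1. Eci1 fell by 0.44 and kept its call in each of those fits. Ppara, the fatty acid sensor that drives many of these genes, fell by 0.96 (adjusted p = 0.0456), with 1090, 829 and 2406 in LF+CR livers and 2568, 2445 and 2599 in HF livers; LF+CR 3 nearly reached the HF livers, and the call was lost on leaving out any array but LF+CR 3.

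Of 18 peroxisomal and microsomal genes, 6 fell and none rose. Vnn1, a pantetheinase, read 1286, 1111 and 1570 in LF+CR livers and 3575, 3445 and 3871 in HF livers, a change of -1.46 ± 0.17 (SE, adjusted p = 0.00014). Pex11a, which acts in peroxisome division, read 817, 1324 and 1271 in LF+CR livers and 2627, 1847 and 2135 in HF livers (-0.96, adjusted p = 0.0031). Cyp4a14, a fatty acid omega-hydroxylase often raised with Ppara activity, did not follow them: it read 4365, 6445 and 5113 in LF+CR livers and 4338, 5264 and 5259 in HF livers, at 0.09 (95% interval -0.24 to 0.41).

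Bile acid genes fell in part. Of 18 tested, 5 fell and none rose; the count was 3 without LF+CR 1, HF 2 or HF 3. Cyp8b1, the enzyme that sets the share of cholic acid, read 1045, 1587 and 855 in LF+CR livers and 3408, 2119 and 3459 in HF livers, a change of -1.37 ± 0.24 (SE, adjusted p = 0.00256). Cyp7a1, the rate-limiting enzyme, read 966, 2976 and 1109 in LF+CR livers and 1289, 1247 and 1291 in HF livers; LF+CR 2 was far above the rest, the groups overlapped and the interval ran from -0.76 to 1.17.

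Among amino acid genes, Tat, tyrosine aminotransferase, read 5175, 4557 and 4868 in LF+CR livers and 2622, 2109 and 2565 in HF livers, a rise of 1.00 ± 0.12 (SE, adjusted p = 0.000178). Cps1, the first enzyme of the urea cycle, rose by 0.49 (adjusted p = 0.00123). These 2 were the only ones of 20 urea cycle and amino acid breakdown genes tested that rose. Otc, another urea cycle enzyme, fell by 0.22 (adjusted p = 0.0373), a call lost on leaving out any array but LF+CR 1. Of the 20 genes, 8 lay at the same level, and the median was 0.02. Of 15 genes of gluconeogenesis and fasting, 2 rose, Tat and the transaminase Got1 (1.25), and 4 fell. The falls were 1 without HF 1 and 2 without HF 3, and the call of Got1 was lost without LF+CR 1. Pck1, the key enzyme of gluconeogenesis, had 0.31 and did not pass (adjusted p = 0.24), and Fgf21, a fasting hormone, had -0.35 (adjusted p = 0.705).

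Hormone and growth factor genes separated the pair in single cases. Of 22 genes of growth hormone, IGF1 and insulin signalling, 3 rose and 2 fell, and the rises were 1 without LF+CR 1, HF 1 or HF 3. Igfbp2, an IGF binding protein, read 4276, 4251 and 3270 in LF+CR livers and 1432, 2471 and 1886 in HF livers (1.05 ± 0.20, adjusted p = 0.00431). Lepr, the leptin receptor, read 456, 90.3 and 398 in LF+CR livers and 74, 80.9 and 77.6 in HF livers. LF+CR 2 was dim like all HF livers, so the size of the fitted log2 fold change, 1.56 (adjusted p = 0.0211), is uncertain. The call was lost without LF+CR 1, LF+CR 3, HF 1 or HF 3, and 2 further Lepr probe sets gave 1.44 and 0.59. Socs2, induced by growth hormone, read 623, 425 and 381 in LF+CR livers and 115, 260 and 106 in HF livers (1.56, adjusted p = 0.0133), a call lost without LF+CR 1, HF 1 or HF 3. The other 4 bright Socs2 probe sets gave 1.87, 0.22, 0.30 and 0.16. Igf1 lay at the same level, with 4022, 3241 and 3956 in LF+CR livers and 3451, 3887 and 3762 in HF livers, an interval from -0.18 to 0.20.

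Other large changes lay outside these lists. Dio1, the deiodinase that activates thyroid hormone, read 742, 435 and 981 in LF+CR livers and 2231, 2168 and 2160 in HF livers (-1.66 ± 0.19, adjusted p = 0.00014). Rdh11, a retinal reductase, rose by 1.67, Cdh1, the epithelial adhesion protein E-cadherin, by 1.63 and Steap2, a metalloreductase, by 1.51, where 3 further Steap2 probe sets gave 0.64, 0.53 and 0.25. Sult2a8, a sulfotransferase, fell by 1.70, and LF+CR 2, at 456, lay far below the other LF+CR livers, at 2345 and 2359. The change was -0.93 without LF+CR 2, and the call was lost without HF 2 or HF 3. The falls of C730036E19Rik (-2.51), Hectd2os (-1.71) and Pimreg (-1.61) rested on 1 bright probe set each, and Pimreg, dim on all LF+CR arrays, was at least 2.54-fold higher in HF livers. For Ptbp1 and Adgrv1 the probe set with the highest signal fell by 1.82 and 1.60 while their other bright probe sets gave 0.11 and 0.06 for Ptbp1 and 0.09 for Adgrv1, so these falls belong to a probe set and not to the gene as a whole.

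Apob, the structural protein of VLDL, read 3068, 2638 and 4075 in LF+CR livers and 6951, 6605 and 8223 in HF livers (-1.17 ± 0.27, SE, adjusted p = 0.0128); it was singled out after its values were seen, a second probe set gave -0.82, and the call was lost without HF 3. It was the only one of 17 apolipoprotein and VLDL genes that fell, and Tm6sf2, which acts in VLDL lipidation, the only one that rose (0.58). Of the 17, 11 belong to the level part of the comparison, described next.

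**Figure D3:**
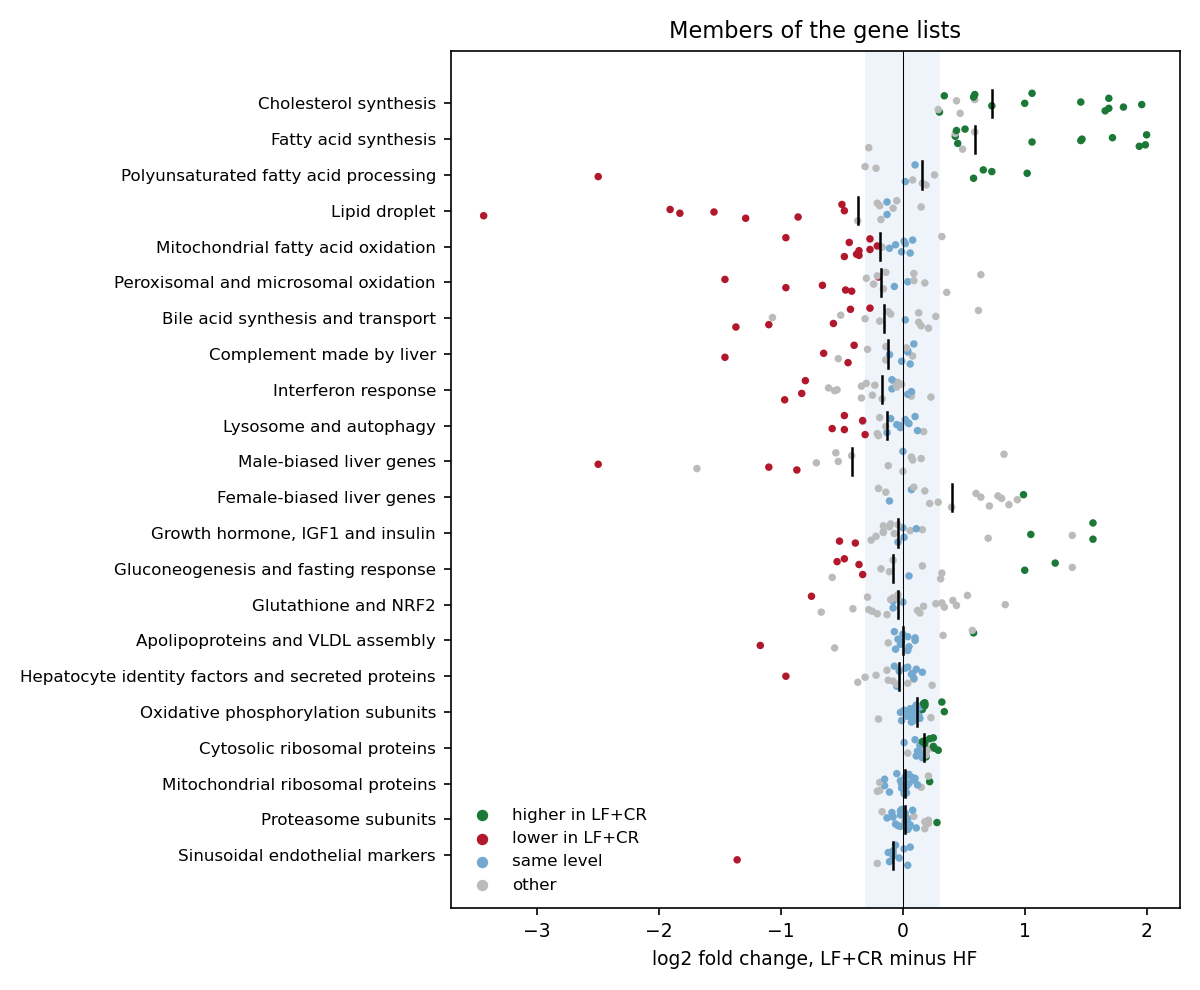
Log2 fold change, LF+CR minus HF, of each tested member of 22 gene lists (points), coloured by call; black bars are medians and the band marks 0.3 either side of 0. Cholesterol and fatty acid synthesis lie to the right, lipid droplet genes to the left, and proteasome, mitochondrial ribosome and endothelial genes mostly within the band.

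Genes at the same level were defined by an interval: the 95% confidence interval of the difference had to lie within 0.3 on the log2 scale, a factor of 1.23, and both group means had to be above 97.57. That held for 6210 genes, 43.7% of those tested, at levels from 98.1 to 20952, and for 3309 of them in every fit that left out 1 of the 6 arrays. A further 973 genes were dim in both groups, and 5815 were neither changed, nor at the same level, nor dim. Changed and level are not exclusive, and 21 genes were both, with a difference that passed the test and an interval inside the margin. Above a level of 1000, 20.1% of 1572 genes changed and 40.3% lay at the same level.

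The brightest level genes were mostly secreted products of the hepatocyte. Besides Alb they were Apoa2, Ttr, Apoa1, Apoe, Serpina1b, Serpina1c and Selenop, together with the cytosolic binding protein Fabp1 and the cytochrome Cyp2e1, with differences between -0.12 and 0.08. Of 17 apolipoprotein and VLDL genes, 11 lay at the same level, 64.7% against 43.7% of all genes tested. Hnf4a, a nuclear receptor that maintains hepatocyte identity, read 3409, 3260 and 3398 in LF+CR livers and 3148, 3661 and 3675 in HF livers, with an interval from -0.23 to 0.12. The methionine cycle list had 6 of 11 genes level, 54.5%, near the 43.7% of all genes tested, among them Ahcy, Gnmt and Mat1a. In that list Bhmt fell by 0.79 and Pemt rose by 0.35. The level genes of that list were 3 without LF+CR 1 or HF 2, and the call of Bhmt was lost without LF+CR 3, HF 1 or HF 3.

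Housekeeping machinery was level to a larger share. It held for 20 of 27 proteasome subunits, 20 of 26 mitochondrial ribosomal proteins and 24 of 28 subunits of oxidative phosphorylation. Of those 28 subunits 7 rose, against 3.39% of all genes, and 25 estimates were positive, with a median of 0.12. The rises were 9 without LF+CR 2, 3 without LF+CR 3 or HF 1, 2 without HF 2 and 1 without LF+CR 1 or HF 3, and the level subunits were 16 without LF+CR 2. Cytosolic ribosomal proteins were level in 13 of 22 cases, yet all 22 estimates were positive and 9 passed the test, with a median of 0.17 and a largest value of 0.29. No ribosomal call was left without HF 3, and 2 were left without LF+CR 2, while 8 of the 22 were level without HF 2. Centring the arrays on their medians left 2 of these 9 ribosomal calls. After that centring, 2 of the 28 oxidative phosphorylation subunits rose and 24 were level.

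Among the cell type lists, markers of the sinusoidal endothelium were level to the largest share. Of 9 hepatocyte markers, 5 were level, 55.6% against 43.7% of all genes tested, and 2 rose. Of 12 endothelial markers, 10 lay at the same level, such as Kdr, a VEGF receptor, with 611, 612 and 616 in LF+CR livers and 626, 618 and 641 in HF livers. Lyve1, a hyaluronan receptor of those cells, was the exception: it read 124, 130 and 106 in LF+CR livers and 348, 310 and 337 in HF livers (-1.36 ± 0.22, SE, adjusted p = 0.0017), and a second probe set gave -0.78. The list's summed level was 5637 to 5885 in LF+CR livers and 6128 to 6371 in HF livers. None of 12 Kupffer cell markers changed or was level, and their sum ran from 8530 to 14856 in LF+CR livers and from 8718 to 13091 in HF livers. Of 23 interferon response genes 3 fell, a count that was 10 without LF+CR 2 and 0 without LF+CR 1.

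A separate question is whether a shared level in LF+CR and HF livers is also the level of the other groups. Genes were tested for the mean of LF+CR and HF minus LF, and minus HF+CR, comparisons that do not use the difference between the pair. Over all genes, 280 passed against LF, 1.97%, and 1055 passed against HF+CR, 7.43%. Among the 6210 level genes, 47 passed against LF, 0.757%, and 345 against HF+CR, 5.56%, so both shares were below those of all genes. The counts were small in effect too, since 2 of the 47 and 11 of the 345 differed by more than 0.5 on the log2 scale. They moved with the arrays used: 1 gene was called against LF and 120 against HF+CR without the 4 arrays with acinar transcripts, 1 of them from LF and 1 from LF+CR.

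Gbe1, the glycogen branching enzyme, was one of the 2 genes furthest from LF. It read 1583, 1463 and 1502 in LF+CR livers and 1705, 1421 and 1476 in HF livers, with means of 990 ± 92.3 in LF and 1074 ± 189 in HF+CR livers (SD, n = 3). Every array of the pair lay above every LF and HF+CR array, by 0.62 (adjusted p = 0.00501) and 0.51 (adjusted p = 0.00709). Lmo7, an adhesion-linked LIM domain protein, was the other, with 328, 394 and 343 in LF+CR livers and 389, 330 and 338 in HF livers, 0.54 above LF (adjusted p = 0.00248) and 0.51 above HF+CR (adjusted p = 0.0018). Over 19 other settings of the limma fit, Gbe1 was level in 12 and Lmo7 in 18. Each passed against LF in 18 of them, with a largest adjusted p of 0.126 for Gbe1 and 0.0642 for Lmo7. Fmo1, a monooxygenase expressed more in female liver, read 2183, 2185 and 2011 in LF+CR livers and 2337, 2341 and 2198 in HF livers, 0.56 above HF+CR (adjusted p = 7.55e-05) and 0.22 above LF (adjusted p = 0.0817). As3mt, the arsenic methyltransferase, averaged 711 ± 6.56 in LF+CR and 709 ± 46.5 in HF livers, against 492 ± 71.9 in HF+CR livers, a difference of 0.52 (adjusted p = 0.0018). Arhgap21, a GTPase-activating protein, averaged 404 ± 26.9 in LF+CR and 405 ± 20.5 in HF livers, and lay 0.62 below HF+CR (adjusted p = 0.00104).

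The furthest departures shared by the pair lay among genes that depend on sex. Hsd3b5, a male-specific steroid dehydrogenase of mouse liver, read 78.3, 69.8 and 70.6 in LF+CR livers and 73.1, 75.3 and 70.2 in HF livers. It was dim on all 6 arrays, whereas LF livers averaged 1021 ± 855 and HF+CR livers 3271 ± 820 (SD, n = 3), at least 8.13-fold and at least 34.9-fold above the pair (adjusted p = 0.00277 and 1.67e-05). Slco1a1, a male-biased uptake transporter, read 116, 82.4 and 105 in LF+CR livers and 110, 118 and 103 in HF livers. The pair again lay together near the dim threshold, 3.62 below LF (adjusted p = 3.7e-05) and 4.35 below HF+CR (adjusted p = 8.18e-06). Neither met the definition of the same level: Hsd3b5 was dim in both groups, and the intervals of LF+CR minus HF ran from -1.16 to 1.16 for Hsd3b5 and from -0.92 to 0.68 for Slco1a1.

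Cyp2b9, a cytochrome that is female-biased in mouse liver, was high in both. It read 3055, 1607 and 2785 in LF+CR livers and 1565, 1966 and 1925 in HF livers, and the groups overlapped (0.40, interval -0.17 to 0.97). The pair lay 2.90 above LF, at 282 ± 131 (adjusted p = 1.09e-05), and 1.51 above HF+CR, at 728 ± 135 (adjusted p = 0.00134). Cyp2b13 and Slc22a27, also female-biased and chosen after their values were seen, lay 2.32 and 1.94 above LF and 2.20 and 2.57 above HF+CR.

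The same sets also separated the pair. Of 15 male-biased genes tested, 3 fell and none rose, with a median of -0.42. Elovl3, a fatty acid elongase, read 299, 72.3 and 194 in LF+CR livers and 825, 746 and 1620 in HF livers (-2.50 ± 0.47, SE, adjusted p = 0.00415), and both were under the LF mean of 2847 ± 384. Cyp7b1, an oxysterol hydroxylase, fell by 1.10 and Cyp2d9 by 0.87. Mup10 and Mup5, major urinary proteins whose probe sets may read other members of the family, fell by 2.39 and 1.95, with LF+CR 2 the lowest array at 54.7 and 230. Of 17 female-biased genes, 1 rose, Slc22a26 (0.99), the median was 0.40 and 14 estimates were positive. Without LF+CR 2 the calls were 5 lower and 1 higher for the male-biased list and 4 higher for the female-biased list.

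**Figure D4:**
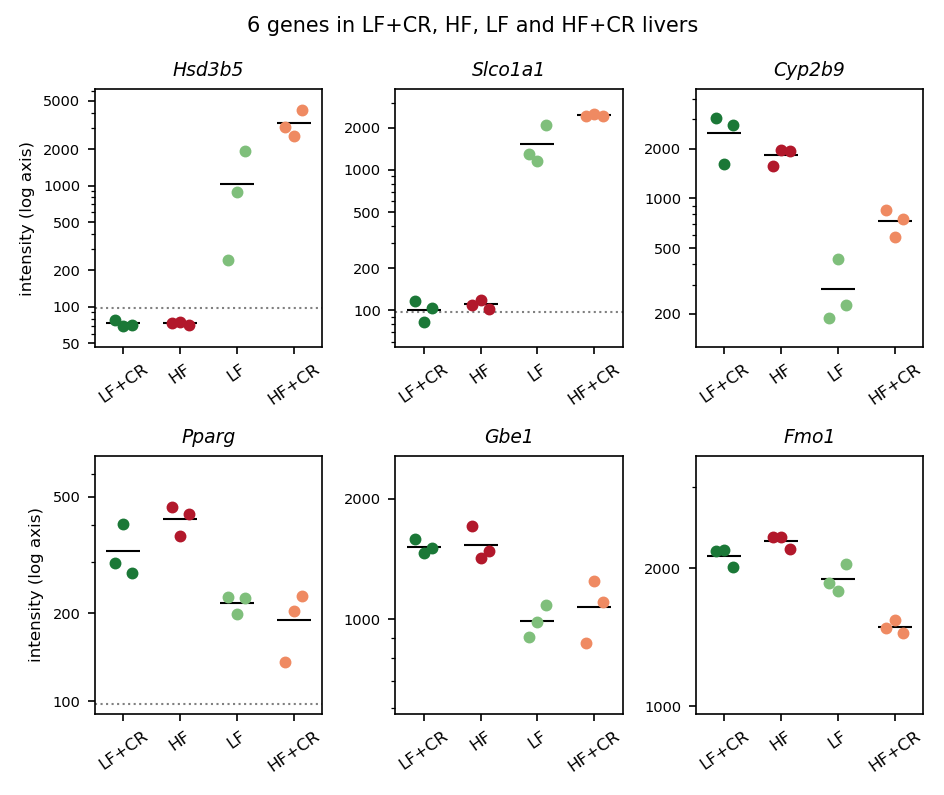
Intensity on each array (points, log axis) in LF+CR, HF, LF and HF+CR livers, 3 arrays a group; black lines are means and the dotted line is the highest dim threshold, 97.57. LF+CR and HF lie together at low levels for Hsd3b5 and Slco1a1, with LF and HF+CR far above, and together at high levels for Cyp2b9, Gbe1 and Fmo1, with HF+CR below.

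Pparg, a fat-storage transcription factor, and Cd36, a fatty acid transporter, stood between these patterns. Pparg averaged 326 ± 69.1 in LF+CR livers and 422 ± 48.3 in HF livers (SD, n = 3); the arrays overlapped and the difference of -0.37 did not pass (adjusted p = 0.21). The pair lay 0.72 above LF (adjusted p = 0.0199) and 0.93 above HF+CR (adjusted p = 0.00191). Cd36 lay 1.51 above HF+CR (adjusted p = 4.81e-05) with 1725, 2175 and 1604 in LF+CR livers and 2842, 2132 and 2320 in HF livers, and did not pass against LF (adjusted p = 0.21).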

How the data were processed

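Liver RNA of 18 male mice, 3 in each of 6 groups, was measured on Affymetrix Mouse Genome 430 2.0 arrays. The authors deposited linear intensity values per probe set, with no statement of software, background correction or normalization in the labels. Of 45101 probe sets, 64 controls were left out, and 34945 had 1 symbol in GEO's platform annotation, 932 several and 9160 none. The probe set with the highest mean stood for each of 18193 genes, and 14198 above the array's 40th percentile on at least 3 arrays were tested. An offset of 16 was added before log2, and limma 3.58.1 (R 4.3.3) fitted 1 mean per group over all 18 arrays. Array medians differed by 0.1525 (log2), and centring was reserved for differences over 0.2. A small fold of a dim gene is understated by the offset. The fit was tested on simulated data.

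Members and lists were chosen with earlier results of these data known. Named genes were the 15 largest rises and falls without overlap, up to 4 changed members of lists with at least 3, a fixed set of 39 genes, and the brightest or most displaced level genes. Any other gene named was chosen after its values were seen. Where each gene's calls are followed, 19 other settings were fitted. Each array held 1 liver, and 3 arrays a group set the precision. Replicate numbers were not taken to pair the animals. The deviations of same-numbered LF+CR and HF arrays correlated at -0.208, -0.412 and 0.238. With 3 arrays a group, these values are too few to settle whether the numbers pair them.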

Additional observations from a re-analysis of the deposited data

How the results depend on the processing

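The count of 1237 changed genes was 3030 with array weights (1232 shared), 472 in a fit of the 6 arrays alone, 777 without LF+CR 2, HF 1 and HF+Ex 3, 545 without the 4 arrays with acinar transcripts, and 73 past 1 on the log2 scale; leaving out each array gave 595 to 1236. Median centring gave 1154, of which 335 were higher and 819 lower. Genes at the same level numbered 10575 with a margin of 0.5 and 4834 to 5614 with 1 array left out. Level genes away from LF, 47, were 26 after centring, 71 with the mean of probe sets, 241 with array weights, 82 with a clock covariate, 17 and 1 without those sets of arrays, and 11 to 64 with 1 array left out. Level genes away from HF+CR, 345, were 743 with array weights, 647 with the clock covariate, 145 and 120 without those sets of arrays, and 166 to 325 with 1 array left out. With the replicate number as a block, 1047 genes changed, 5978 were level, and 20 and 244 were away from LF and HF+CR. Same-numbered arrays correlated at r = -0.208, -0.412 and 0.238, and not every array correlated best with its own number. Whether the numbers pair the animals is not settled by these values. Over the named genes no called direction reversed: 3598 of 3900 comparisons kept their call status, 265 lost the call and 37 gained it, and 55 of 102 called genes lost it at least once. Signal near the dim threshold limits small changes.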

Other observations

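Single arrays held values that no comparison above uses. Prom1, a membrane glycoprotein of progenitor cells, read 361 on LF+CR 2, against 68.1 and 69 on LF+CR 1 and LF+CR 3 and 60.5 to 70.1 on the HF arrays. Ccnd1, the cell cycle gene cyclin D1, read 2470 on LF+CR 2, against 875 and 648 on the other LF+CR arrays and 417 to 823 on the HF arrays. Marco, a scavenger receptor of Kupffer cells, read 785 on LF+CR 2 and 648 on HF 2, against 118 to 161 on the other 4 arrays. Cd163, another receptor of those cells, read 355 to 388 on the LF+CR arrays and 71.9, 299 and 192 on the HF arrays, and did not pass (adjusted p = 0.106).

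Of genes linked to haem and stress, Alas2, which starts haem synthesis in red cells, read 375, 456 and 393 in LF+CR livers and 868, 778 and 880 in HF livers (log2 fold change -1.02 ± 0.10, SE, limma adjusted p = 3.47e-05). It is in the list of erythroid markers, of whose 4 tested members 1 rose and Alas2 alone fell, with a median of -0.09. The summed level of the list, Alas2 included, was 909 to 1071 in LF+CR livers and 1371 to 1521 in HF livers. Saa4, a constitutive serum amyloid, read 1253, 1109 and 1840 in LF+CR livers and 2962, 4320 and 3715 in HF livers (-1.39, adjusted p = 0.000247), while the acute phase protein Saa1 had 384 to 1736 in LF+CR livers and 2489 to 3866 in HF livers and did not pass (-1.65, adjusted p = 0.179). Edem1, which acts in the disposal of misfolded proteins, rose by 0.60 (adjusted p = 0.000243) and was the only one of 23 endoplasmic reticulum genes that passed. These genes were chosen after their values were seen.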
